A study of Bos taurus with 20 samples.

Results

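Some probes of the cattle array do not belong to a named gene. Many of these carry the names of expressed sequence tags (ESTs, single reads of cDNA clones), and some those of genomic contigs, such as NW_928513. The array's description calls them unidentified transcripts and places them by chromosome and position. Every non-control probe with such a placed description was taken, outside 1 stretch that was left out. This gave 1554 transcripts among 21475 probes, spread over chromosomes 1 to 29 and X. Another 645 probes for unidentified transcripts carry no position, and 19273 probes are described in other terms, mostly as genes. Each transcript is called here by its name in the files.

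The RNA came from skin biopsies of the horn-forming part of the head, with epidermis, dermis and the connective tissue under it, in 4 polled cattle (born without horns), 4 scurred cattle (with loose, rudimentary horns) and 3 horned cattle. Polled animal 2 was the only male of its group, scurred animal 2 the only female of the scurred animals and horned animal 2 the only female of the horned. On chips 1 to 4, 4 arrays each compared 1 polled, 1 scurred and 1 horned animal in 2 colours, with 1 horned animal shared by chips 2 and 4. Chip 5 compared horn-site skin with control skin from elsewhere on the skull in polled animal 3 and scurred animal 2. Ages are not given in the sources used here, and each replicate is 1 animal. On the 20 arrays, 62.2% to 73.7% of spots were well above background, at most 2 were saturated and at most 19 were rejected by the scanner software.

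ESTs without a gene name come from many sources. A placed EST may be the end of an untranslated part of a known gene, an exon missing from the gene models of its day, a long non-coding RNA, or unspliced RNA caught in the library. In cattle the dominant polled locus lies near the start of chromosome 1, between coding genes, and transcripts without a coding role near it have drawn interest for that reason. Skin at the horn site mixes epidermis, hair follicles, glands, dermal fibroblasts, nerve, vessels and muscle, so a transcript used by 1 cell type follows the share of that type in a biopsy. In such bulk RNA, fewer cells of a type and less RNA per cell cannot be told apart.

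The 5 transcripts at the start of chromosome 1 are shown first because the question of the study is the horn. The probe letters are those of the deposited files, 5′ to 3′, and capitals mark AATAAA, the usual signal for adding a poly(A) tail, where it occurs. BF605527 lies at chr1:328734-329485, BI976148 at chr1:2845909-2846963 and EE895728 at chr1:6149302-6149999. The next beyond the 10 Mb limit are EE895112 at chr1:11640908-11641610 and BI681573 at chr1:11762016-11763011. The genome build behind these positions is not given in the sources used here, and no annotation of a gene, exon or intron was laid over them. The description writes the first 3 with the higher coordinate in front (descending) and the other 2 ascending.
BF605527: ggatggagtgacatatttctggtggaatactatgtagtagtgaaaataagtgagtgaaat
BI976148: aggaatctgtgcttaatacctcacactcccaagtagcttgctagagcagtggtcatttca
EE895728: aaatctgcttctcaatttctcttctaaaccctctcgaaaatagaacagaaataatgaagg
EE895112: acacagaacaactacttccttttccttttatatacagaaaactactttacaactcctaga
BI681573: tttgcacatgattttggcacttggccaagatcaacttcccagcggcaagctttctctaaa

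The 6 transcripts with the lowest p-values between polled and horned animals, among those with the same sign on 4 of 4 chips, are shown because that comparison is described through them. BE757006 lies at chr2:78175782-78176153 and AV664523 at chrX:13482849-13483480, both ascending. EE899397 at chr22:44577053-44577838, BI682285 at chr15:53072563-53073257, CB465298 at chr14:1719619-1720704 and CB533545 at chr3:78620287-78620967 are descending. Of these, 3 hold AATAAA.
BE757006: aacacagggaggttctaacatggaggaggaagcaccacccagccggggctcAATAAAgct
EE899397: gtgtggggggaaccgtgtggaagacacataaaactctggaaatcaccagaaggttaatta
AV664523: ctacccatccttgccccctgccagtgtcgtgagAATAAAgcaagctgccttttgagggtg
BI682285: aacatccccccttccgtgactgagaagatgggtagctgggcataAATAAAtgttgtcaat
CB465298: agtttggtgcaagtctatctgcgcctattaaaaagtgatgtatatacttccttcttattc
CB533545: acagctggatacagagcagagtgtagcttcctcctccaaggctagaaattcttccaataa

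The last set is shown because the transcripts lie close together or vary most between animals. BG690916 (chr19:16765961-16767016) and BM286287 (chr19:16766943-16767625) overlap, and EE890311 (chr13:5669968-5670901) lies near EE907497 (chr13:5678054-5678707). CB537631 (chr10:31227584-31228676), CB224791 (chr23:1568047-1568608) and CB426702 (chr26:35705205-35705732) followed epidermal genes across animals.
BG690916: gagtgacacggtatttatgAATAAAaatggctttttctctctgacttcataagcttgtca
BM286287: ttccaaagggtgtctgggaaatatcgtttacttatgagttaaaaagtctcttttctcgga
EE890311: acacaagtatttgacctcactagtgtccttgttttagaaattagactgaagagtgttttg
EE907497: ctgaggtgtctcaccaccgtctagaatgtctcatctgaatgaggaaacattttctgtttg
CB537631: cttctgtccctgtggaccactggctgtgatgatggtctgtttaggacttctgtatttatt
CB224791: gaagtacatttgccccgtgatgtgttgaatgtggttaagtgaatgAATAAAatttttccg
CB426702: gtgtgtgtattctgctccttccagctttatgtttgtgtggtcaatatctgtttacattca

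Most of these unidentified transcripts were present in skin. A probe was taken as detected in an animal when at least 50% of that animal's spots were well above background by the scanner software's own test. By this measure 1042 of 1554 transcripts (67.1%) were detected in all 11 animals, 274 in some animals and 238 (15.3%) in none. The shares were 60.6% and 22.7% among the 19273 other probes, and 58.6% and 17.7% among the 645 unidentified transcripts without a position. Detection in at least 3 of 11 animals admitted 1261 transcripts (81.1%) to the tests, against 72.4% of the other probes. Per animal, from 1134 (horned animal 1) to 1255 (polled animal 2) of the 1554 were detected. The 238 undetected transcripts had mean levels between 6.08 and 6.47 on the normalised log2 scale, and the 1261 tested had mean levels from 6.47 to 16.69. Those undetected were somewhat shorter on the genome, with a median placed length of 691 bases against 769 for those detected in all animals.

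Detection was similar on nearly every chromosome. The share tested ran from 64.3% on X (18 of 28) and 68.2% on chromosome 27 (15 of 22) to 88.6% on chromosome 8 (39 of 44) and 92.6% on chromosome 26 (25 of 27). Chromosome 19 held the most transcripts, 90, of which 61 were detected in all animals and 15 in none. On chromosome 1, 50 of 78 were detected in all animals and 14 in none. The orientation written in the description made little difference, with 66.5% of 798 ascending and 67.6% of 756 descending transcripts detected in all animals.

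**Figure D1:**
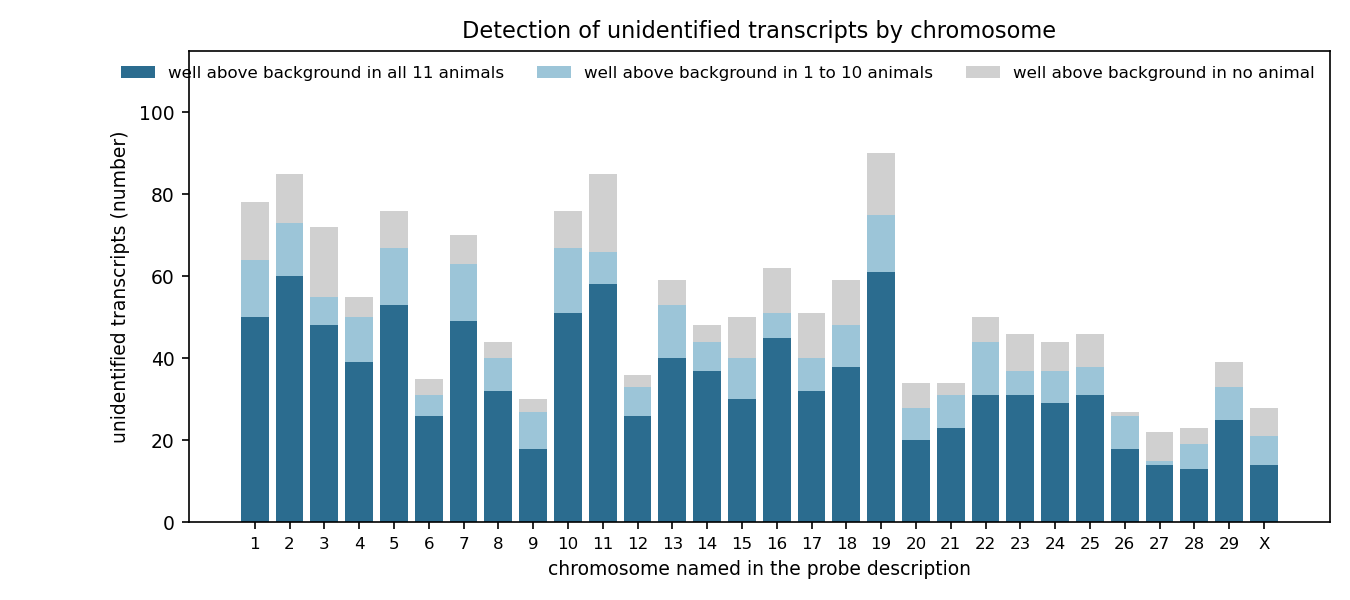
Number of placed unidentified transcripts per chromosome (bars from 0), split by whether the probe was well above background in all 11 animals, in 1 to 10 or in none. On every chromosome the transcripts detected in all animals form the largest class, with shares from 50% on X (14 of 28) to 77.1% on chromosome 14 (37 of 48).

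The poly(A) signal was as frequent in transcripts detected in no animal as in those detected in all. The letters AATAAA stood in 131 of the 1042 probes detected in all animals (12.6%) and in 30 of the 238 detected in none (12.6%). In the 274 detected in some animals they stood in 22 (8.03%). Among the other probes the shares were 16.2% of those detected in all animals, 5.34% of those detected in some and 4.66% of those detected in none. Over each whole set the shares were alike, 11.8% of 1554 and 11.8% of 19273. The letters of the opposite strand, TTTATT, stood in 4.51% of unidentified transcripts detected in all animals and 5.04% of those detected in none. These are counts of letters in a window of 60 bases, and 5 of the 1554 probes held both words. The probes also had a lower share of G and C, with a median of 40% against 45% in the other probes. No stretch of 20 bases was shared between 2 of these transcripts, and 1 shared such a stretch, on the opposite strand, with a probe for the gene ZHX3.

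No transcript was detected in every animal of 1 horn type and in none of both others. AW446067 on chromosome 14, EE910068 on chromosome 9 and EE896178 on chromosome 19 were detected in 4 of 4 polled and 0 of 3 horned animals, a pattern that was picked out after the values were seen. It was shown by 3 of 1554 transcripts and by 31 of all 21475 probes, so these 3 are near the background. EE896178 alone spanned a wide range. Its levels were 9.40, 7.70, 6.75 and 7.01 in polled animals 1 to 4, 9.73, 9.34, 6.48 and 6.39 in scurred animals 1 to 4, and 6.17, 6.45 and 6.46 in horned animals 1 to 3. It was high in polled animals 1 and 2 and scurred animals 1 and 2. These 4 animals also had the highest mean log2 level over the epidermal genes, by a small margin (12.85 to 14.71, against 9.71 to 12.80 in the others). They were also highest for the melanocyte genes (8.07 to 10.47, against 6.66 to 7.675 in the others). Both lists were set beside the pattern after it was seen. The part of epidermal or melanocyte content in this pattern was not tested. AW446067 and EE910068 stayed between 6.44 and 7.22 in all 11 animals, close to background. All 3 differences between polled and horned animals failed the test (the smallest limma adjusted p was 0.715, for EE896178).

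As a class, the transcripts were lower in 2 animals than in the other 9. Each probe's deviation from its own mean over the 11 animals was taken, and the median over the 1261 tested transcripts was -0.30 in scurred animal 1 and -0.15 in horned animal 1. In the other 9 animals this median lay between 0.01 and 0.12, with polled animal 3 highest. Over the 13954 other tested probes it lay between -0.03 and 0.01 in all 11 animals. Both low animals were on chip 1, whose other animal, polled animal 1, stood at 0.01. The scan day of chip 1 differed from that of chips 2 to 5, per the file headers. Counts without these animals or without chip 1 are given with the comparisons between horn types.

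**Figure D2:**
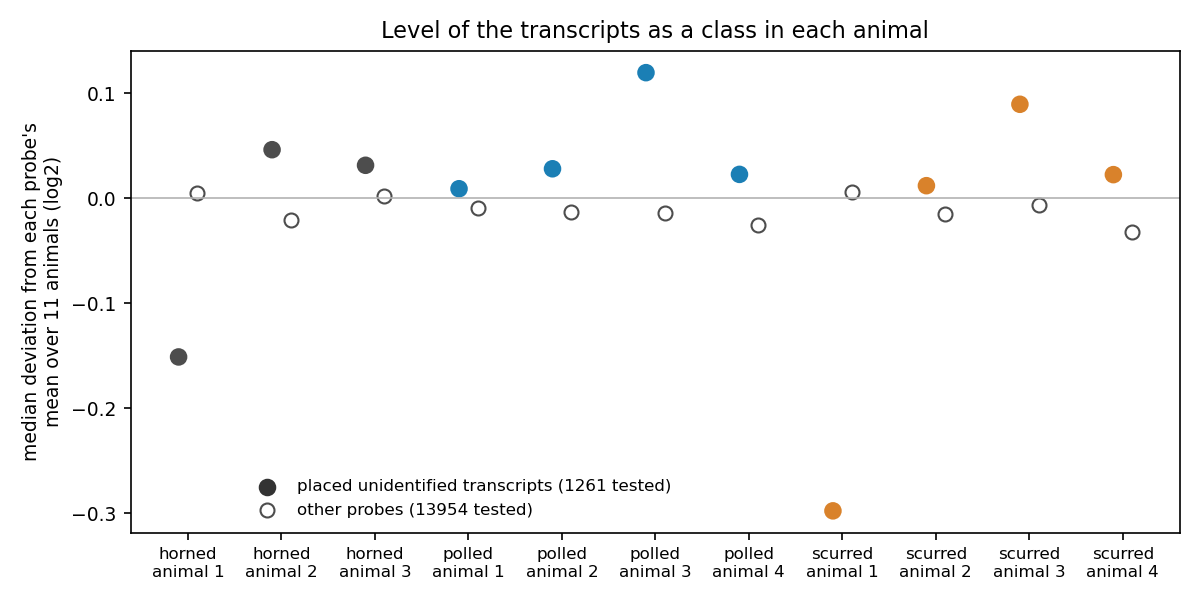
Median deviation of the log2 level from each probe's mean over 11 animals, for the 1261 placed unidentified transcripts tested (filled, coloured by horn type) and the 13954 other probes tested (open). The filled points of horned animal 1 (-0.15) and scurred animal 1 (-0.30) lie below those of the other 9 animals.

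The transcripts also varied more between animals than the other probes. The median SD of the level over 11 animals was 0.355 for the 1261 tested, against 0.295 for the other tested probes. For the 491 tested unidentified transcripts without a position it was 0.371, so this was not particular to the placed ones. Differences of more than 1 on the log2 scale from the horned animal of the chip were not more frequent than over all probes in most animals. The share was 13.8% against 9.10% of all probes in polled animal 1 and 13.7% against 13.4% in scurred animal 1, and in each of the 6 animals of chips 2 to 4 it was below that of all probes, for example 9.67% against 10.5% in polled animal 2.

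Between polled and horned animals, more of the unidentified transcripts were higher than lower in polled skin. The question was whether horn types differ in transcripts that no gene name covers. Of 1261 tested, 759 (60.2%) had a higher and 502 a lower value in polled animals, with a median difference of 0.070 on the log2 scale. Over all 15709 probes tested, 52.1% were higher and the median was 0.012. By animal, before adjustment for sex, the median difference was 0.172, -0.007, 0.104 and -0.005 in polled animals 1 to 4. Over all probes these medians lay between 0.002 and 0.010, so the shift lay in the differences of polled animals 1 and 3. In median deviation of the level, horned animal 1 was low (-0.15) and polled animal 1 was not (0.01). On chip 3 these medians were 0.12 in polled animal 3 and 0.03 in horned animal 3. Both pairs set a female polled animal against a male horned animal. Without the sex term in the fit the median difference was 0.079. Of the 491 tested unidentified transcripts without a position, 56.2% were higher. No transcript passed the adjusted threshold of 0.05 in limma (Benjamini-Hochberg over all probes), and the smallest adjusted p was 0.364. Over all probes 1 of 15709 (0.00637%) passed. At an unadjusted p under 0.05 there were 155 transcripts (12.3%), against 9.31% of all probes, with 109 higher (8.64% against 4.78%) and 46 lower (3.65% against 4.53%). Further, 254 transcripts (20.1%) were higher in polled animals on 4 of 4 chips against 14.2% of all probes.

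These counts moved with single animals. Without polled animal 2, the male of its group, there were 24 higher and 13 lower transcripts at an unadjusted p under 0.05, and 2.21% of all probes. Without horned animal 1 there were 78 and 26. Without horned animal 3 there were 71 higher and 56 lower, and without chip 3 there were 65 and 46, the most even splits over the left-out animals and chips. Without horned animal 2 there were 71 and 23. Here and below, leaving out chip 2 or chip 4 dropped its polled and scurred animal and kept horned animal 2, which is on both. Without chip 2 there were 22 and 7, with 1.55% of all probes. Without chip 1 the counts were 98 and 52, and without polled animal 1 the median difference was 0.025. The share above 0 stayed between 53.4% and 62.2% whichever animal or chip was left out, against 50.9% to 52.8% of all probes. Without the chip as a block there were 54 higher and 38 lower. In each of 4 classes of G and C content the share higher in polled skin exceeded that of the other probes, for example 64.5% of 434 transcripts and 52.8% of 3541 other probes at 36% to 42% G and C.

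Of the 6 named transcripts of this comparison, 4 were higher and 2 lower in polled skin. BE757006 had levels of 11.89, 11.11, 11 and 10.50 in polled animals 1 to 4, 11.84, 10.77, 11.37 and 10.27 in scurred animals 1 to 4, and 10.64, 9.503 and 9.56 in horned animals 1 to 3. The horned animals were the lowest apart from horned animal 1, which lay within the range of the others but 1.21 below polled animal 1 of its own chip. The fitted difference was 1.38 ± 0.23 (SE, n = 11 animals) for polled and 1.22 ± 0.22 for scurred against horned animals. Neither passed the limma test after adjustment (adjusted p = 0.364 and 1). Polled and scurred animals did not differ beyond their spread (-0.16 ± 0.22).

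BE757006 followed lymphocyte genes across the animals. The genes with the closest pattern were SIT1, an adaptor in T cell signalling (r = 0.939), CD3G, a chain of the T cell receptor complex (r = 0.936), and SUSD3 (r = 0.928), each over 11 animals. Its r with the mean level of the T and B lymphocyte genes was 0.919. Of the 8 genes of that list (CD3G among the 8) 6 were tested. Their mean level was 7.72 to 8.34 in polled, 7.83 to 8.52 in scurred and 7.38 to 7.84 in horned animals. The part of lymphocyte content in the difference was not tested.

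EE899397 had levels of 7.53, 9.54, 9.78 and 8.93 in polled, 6.74, 8.61, 8.18 and 8.03 in scurred, and 6.46, 7.65 and 7.40 in horned animals, in animal order. It was not well above background in horned animal 1. On each of the 4 chips the scurred animal was below the polled one (-0.79 to -1.64), and the polled animals exceeded the horned by 1.60 ± 0.29 (limma adjusted p = 0.378). Its pattern was nearest to TARS3, a threonyl-tRNA synthetase (r = 0.957), and its r with the mean level of the gland genes was 0.938. That mean level was 10.95 to 13.17 in polled, 10.93 to 12.32 in scurred and 10.83 to 11.20 in horned animals. On chip 5 EE899397 was 2.02 higher at the horn site in polled animal 3 and stood at -1.48 in scurred animal 2, a contrast between 2 animals that was not tested.

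BI682285 was high in the polled animals and in the only female of each other group. Its levels were 9.504, 9.02, 9.33 and 9.32 in polled, 8.11, 9.11, 8.24 and 8.31 in scurred, and 7.94, 8.85 and 8.05 in horned animals. Only scurred animal 2 reached the polled range. Scurred animal 2 and horned animal 2, the only females of their groups, were the highest of them. Before adjustment for sex, polled animals 1 to 4 stood at 1.547, 0.135, 1.325 and 0.507 from the horned animals of their chips. The fitted polled excess over horned animals was 0.71 ± 0.13 (limma adjusted p = 0.378), and its closest pattern was that of BCOR, a transcriptional corepressor (r = 0.933). CB533545 ranged from 7.80 to 9.54 in polled, 6.78 to 8.73 in scurred and 6.74 to 8.32 in horned animals, so the groups overlapped. Its fitted difference was 0.73 ± 0.14 (limma adjusted p = 0.388), and its unadjusted p reached 0.24 across the alternatives tried. Its r with the mean level of the gland genes was 0.772, and their part in the difference was not tested.

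AV664523, on X, had its lowest values in animals without full horns. Its levels were 9.39, 8.84, 9.06 and 8.73 in polled, 9.29, 9.15, 9.02 and 9.004 in scurred, and 10.09, 9.55 and 9.66 in horned animals. All 8 polled and scurred animals lay below all 3 horned animals. The fitted differences were -0.73 ± 0.13 for polled and -0.48 ± 0.13 for scurred animals (limma adjusted p = 0.378 and 1). The share of all probes at an unadjusted p under 0.05 and lower was 4.53% and 2.13% in these comparisons. Its r with the mean level of the gland genes was -0.797. Without chip 2 its unadjusted p between polled and horned animals was 0.0731.

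CB465298 also had lower means in both groups without full horns. Its levels were 11.48, 9.92, 11.81 and 10.40 in polled, 10.23, 11.39, 11.22 and 10.90 in scurred, and 11.78, 12.16 and 12.48 in horned animals. Only polled animal 3 reached the horned range, and on its own chip it stood at -0.69 from the horned animal. The fitted differences were -1.48 ± 0.27 and -1.07 ± 0.26 (limma adjusted p = 0.378 and 1). The closest patterns were NLGN3, a neuronal adhesion protein (r = 0.942), and JAM2, a junction protein of vessel walls (r = 0.940). Its r with the mean level of the nerve and Schwann cell genes was 0.848. That mean level was 10.86 to 11.95 in polled, 10.68 to 11.85 in scurred and 11.69 to 12.16 in horned animals. The part of nerve content in the difference was not tested. At the horn site against control skin CB465298 was -1.73 in polled animal 3 and 1.18 in scurred animal 2.

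**Figure D3:**
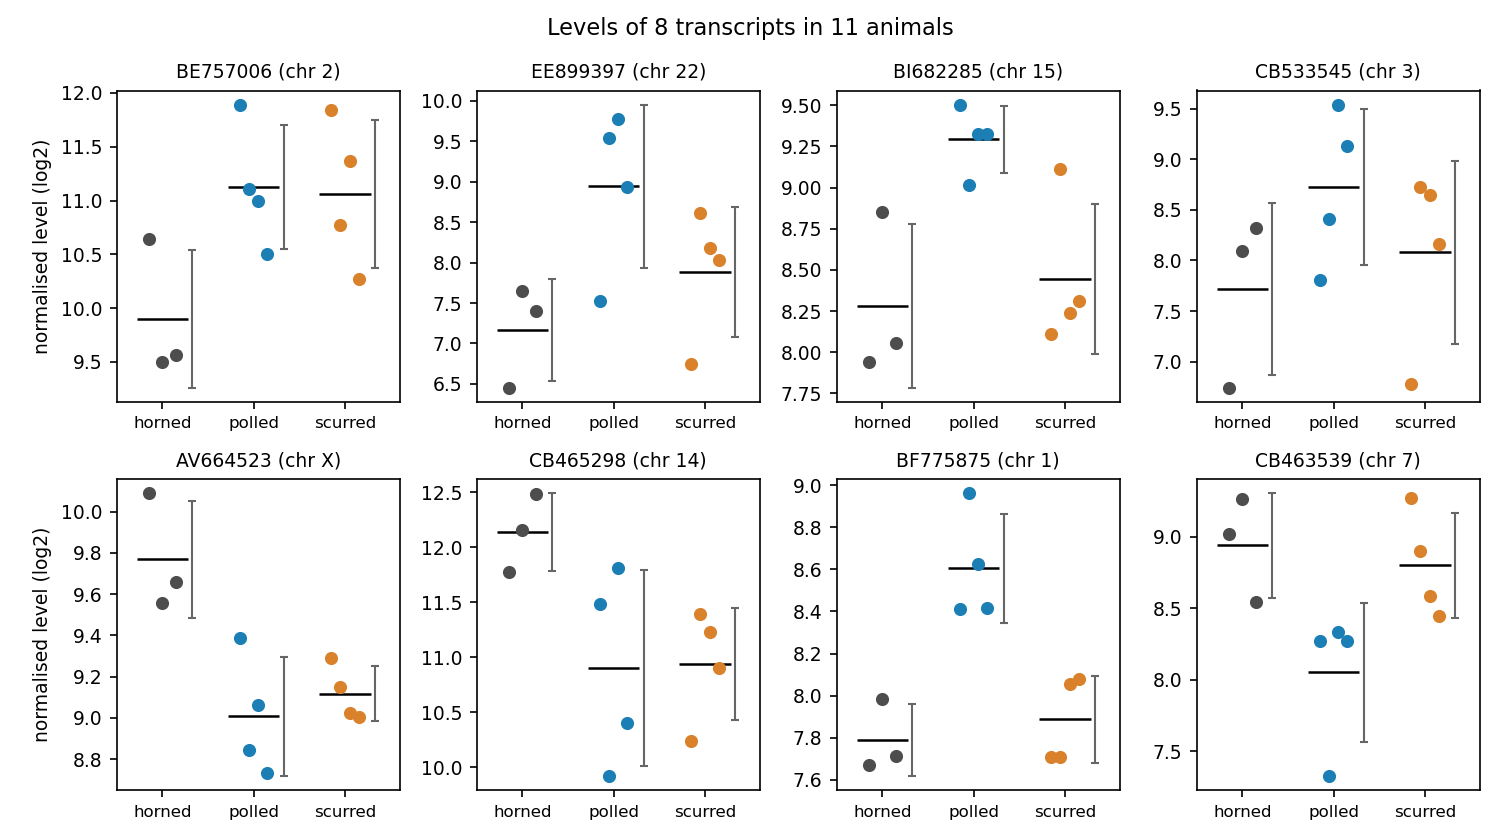
Normalised log2 level in each of the 11 animals for 8 transcripts, by horn type (points, 1 per animal; black line, mean; grey bar, 1 SD on each side). Each panel has its own scale that does not start at 0; AV664523 shows all polled and scurred animals below the 3 horned animals, and BF775875 all polled animals above all others.

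No transcript was shown to differ between scurred and horned animals. The median difference was -0.004 and 613 of 1261 (48.6%) were higher, against 51.5% of all probes. None passed the adjusted threshold in limma, as did none of all 15709 probes (0%). At an unadjusted p under 0.05 there were 61 (4.84%, against 3.73% of all probes), with 24 higher (1.9% against 1.6%) and 37 lower (2.93% against 2.13%). The balance turned when any of several animals was left out. There were 54 higher and 13 lower (median 0.045) without scurred animal 1, 48 and 17 without chip 1, and 27 and 15 (median 0.0015) without horned animal 1. There were 32 and 28 without polled animal 2, 52 and 46 without scurred animal 4, and 46 and 41 without chip 4. There were 29 in all without horned animal 2 or chip 2, 36 without scurred animal 2 and 98 without scurred animal 4. The balance was 13 higher and 38 lower with median centring in place of loess. The comparisons of polled and of scurred with horned animals share the 3 horned animals.

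Beside BE757006, CB465298 and AV664523, this comparison named 3 more. BE752842 had levels of 10.85, 11.53, 10.77 and 11.37 in scurred, 11.39, 11.07, 11.46 and 11.14 in polled, and 12.29, 12.11 and 11.49 in horned animals. Scurred animal 2 alone reached the horned range. The fitted difference was -0.88 ± 0.23 for scurred and -0.86 ± 0.24 for polled animals (limma adjusted p = 1 and 0.476), and the nearest gene was SYNPO2, an actin-binding protein of smooth muscle (r = 0.907). AW316403 lay at 8.64, 9.76, 8.77 and 8.92 in scurred and at 9.42, 10.52 and 9.32 in horned animals. The groups overlapped only through scurred animal 2, the only female of its group. Each scurred animal was below the horned animal of its chip (-0.47 to -1.54). The fitted scurred difference was -0.62 ± 0.15 (limma adjusted p = 1). Polled animals 1 to 4 stood at 0.51, -1.95, 0.38 and -1.02 from the horned animals of their chips, with mixed signs. The fitted polled difference of AW316403 was -0.76 ± 0.16 (limma adjusted p = 0.429). BM432301 was higher in scurred than horned animals by 0.68 ± 0.18 (limma adjusted p = 1).

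Between scurred and polled animals most transcripts had lower values in scurred skin. Of 1261 transcripts, 465 (36.9%) were higher and 796 lower in scurred skin, against 48.3% higher of all probes, with a median of -0.066 against -0.008. Of the 491 tested unidentified transcripts without a position, 45.2% were higher. None passed the adjusted threshold in limma (0% of all probes), with a smallest adjusted p of 0.793. At an unadjusted p under 0.05 there were 104 (8.25%, against 5.99%), with 23 higher (1.82% against 2.91%) and 81 lower (6.42% against 3.08%). Without scurred animal 1 the counts were 60 higher and 78 lower with a median of -0.025 (-0.011 for all probes). Without chip 1 they were 66 and 84 with a median of -0.017 (-0.009 for all probes). The share above 0 came near that of all probes without scurred animal 1 (45.1% against 47.7%), chip 1 (46.6% against 48.1%) or chip 2 (47.2% against 48.6%). Whichever animal or chip was left out, it lay between 34.5% and 47.2%, against 47.7% to 51.2% of all probes. Without polled animal 2 there were 2 higher and 12 lower, with 1.53% of all probes, and without chip 2 there were 5 and 11. Without the chip block there were 15 higher and 21 lower.

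The transcripts named here were mostly higher in polled than in scurred skin. Against horned animals, the fitted scurred difference was -0.22 ± 0.11 for AW327184 and -0.31 ± 0.14 for BM090266. The fitted polled difference of these 2 was 0.32 ± 0.12 and 0.395 ± 0.142. BF775875 on chromosome 1 had levels of 8.41, 8.96, 8.62 and 8.42 in polled, 7.71, 7.71, 8.06 and 8.08 in scurred, and 7.67, 7.98 and 7.71 in horned animals. All polled animals lay above all others. The fitted scurred difference from polled was -0.88 ± 0.18 (limma adjusted p = 0.793), and it was -0.21 without chip 2. CB463539 on chromosome 7 went the other way, with 8.27, 7.33, 8.33 and 8.27 in polled, 9.27, 8.90, 8.58 and 8.45 in scurred, and 9.01, 9.26 and 8.54 in horned animals. All polled animals lay below all others, and scurred exceeded polled by 1.08 ± 0.22 (limma adjusted p = 0.793).

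AV592301, at 12.20, 12.84, 12.46 and 12.96 in polled and 11.54, 12.29, 11.96 and 11.92 in scurred animals, was lower in scurred on 4 of 4 chips (-0.51 to -1.06). The fitted differences of scurred from polled animals were -0.46 ± 0.10 for CB425183, -0.55 ± 0.11 for AW327184 and -0.70 ± 0.14 for BM090266, which was detected in 3 of 4 scurred animals. Without chip 2 the difference of BM090266 was -0.37 (limma adjusted p = 1). The limma adjusted p was 0.793 for each. Across the animals, 5 of these 6 transcripts followed the mean level of the gland genes, with r of at least 0.705 (0.705 for BF775875, 0.794 for AW327184), while CB463539 had r = -0.665. Gland genes were highest in polled animals 2, 3 and 4 (12.72 to 13.17), and their part in these differences was not tested.

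The horn site was compared with control skin in polled animal 3 and scurred animal 2. More unidentified transcripts were higher at the horn site, 735 of 1231 (59.7%), against 47.6% of all 15290 probes tested, with a median of 0.039 against -0.009. Of the 482 tested unidentified transcripts without a position, 56.8% were higher, with a median of 0.023. The median over the 1231 placed transcripts was 0.071 in 1 animal and 0.014 in the other. With median centring in place of loess the median turned to -0.069 and that of all probes to -0.154, so the difference from all probes kept its sign (0.085 against 0.047). None passed the adjusted threshold in limma (0% of all probes), and the smallest adjusted p was 0.962. At an unadjusted p under 0.05 there were 64 (5.2% against 4.71%), with 49 higher (3.98% against 2.65%) and 15 lower (1.22% against 2.06%), and this split was 16 and 40 with median centring. A test on 2 animals measures little of the spread between animals.

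The 4 named transcripts of this comparison were all higher at the horn site. BM483206 on chromosome 1 was at 11.47 and 10.27 at the horn site and 10.19 and 9.45 in control skin of the polled and the scurred animal, a difference of 1.06 ± 0.17. EE930778 on chromosome 7 was at 11.44 and 11.32 against 10.60 and 10.03, a difference of 1.07 ± 0.17. AV616443 on chromosome 18 was at 9.61 and 9.56 against 8.70 and 8.74, a difference of 0.86 ± 0.12. In each of these the 2 animals moved the same way by 0.82 to 1.29, and limma gave an adjusted p of 0.962 for each. Between polled and horned animals on chips 1 to 4 these 3 gave unadjusted p from 0.0629 to 0.756 in limma. The fourth was BI681573, described with its neighbours on chromosome 1.

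Below 10 Mb on chromosome 1, the side of the polled locus, the array had 3 of the 78 transcripts of that chromosome. BF605527 was not well above background in any of the 11 animals, with levels of 6.16 to 6.44, and in fewer than 2 of the 4 RNAs of chip 5. BI976148 and EE895728 were detected in all 11 animals. Neither passed the adjusted threshold in any comparison.

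BI976148 had levels of 8.38, 8.36, 8.28 and 8.55 in polled, 6.68, 8.60, 8.27 and 8.39 in scurred, and 7.25, 8.01 and 8.67 in horned animals. Scurred animal 1 and horned animal 1, the 2 animals low in this class as a whole, were the lowest, and the 4 polled animals lay within the range of the rest. Polled and horned animals differed by 0.27 ± 0.36 (limma adjusted p = 0.849) and scurred and horned by -0.10 ± 0.35 (limma adjusted p = 1). Without scurred animal 1 the latter was 0.21, and without polled animal 1 the former was -0.03.

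EE895728 had levels of 8.83, 8.37, 8.55 and 8.03 in polled, 7.20, 8.22, 8.71 and 8.49 in scurred, and 7.31, 7.78 and 8.46 in horned animals. The groups overlapped, and the same 2 animals were again the lowest. The differences were 0.59 ± 0.35 for polled (limma adjusted p = 0.622) and 0.26 ± 0.34 for scurred against horned animals (limma adjusted p = 1). The polled difference was 0.24 without polled animal 1 and 0.30 without chip 1. The scurred difference was 0.12 without horned animal 1, 0.15 without scurred animal 3 or 4, 0.17 without polled animal 1, 0.41 without horned animal 3 and 0.55 without scurred animal 1. Both transcripts were lower at the horn site than in control skin in both animals, at -0.18 and -0.28 for BI976148 and -0.17 and -0.46 for EE895728, with limma adjusted p = 0.962 for each.

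Just beyond the limit, EE895112 and BI681573 were each detected in 10 of 11 animals, 3 of the 4 scurred and all others. EE895112 was 0.81 and 0.34 higher at the horn site in the 2 animals, and BI681573 was 1.09 and 0.74 higher. EE895112 had levels of 7.28, 7.52, 8.28 and 7.65 in polled, 6.38, 7.56, 8.31 and 7.80 in scurred, and 7.67, 8.29 and 8.45 in horned animals. Each of the 8 animals was below the horned animal of its chip (-0.03 to -1.37). The fitted differences were -0.51 ± 0.27 for polled and -0.64 ± 0.26 for scurred animals (limma adjusted p = 0.593 and 1). BI681573 showed no such order, at -0.22 ± 0.38 and -0.30 ± 0.36.

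**Figure D4:**
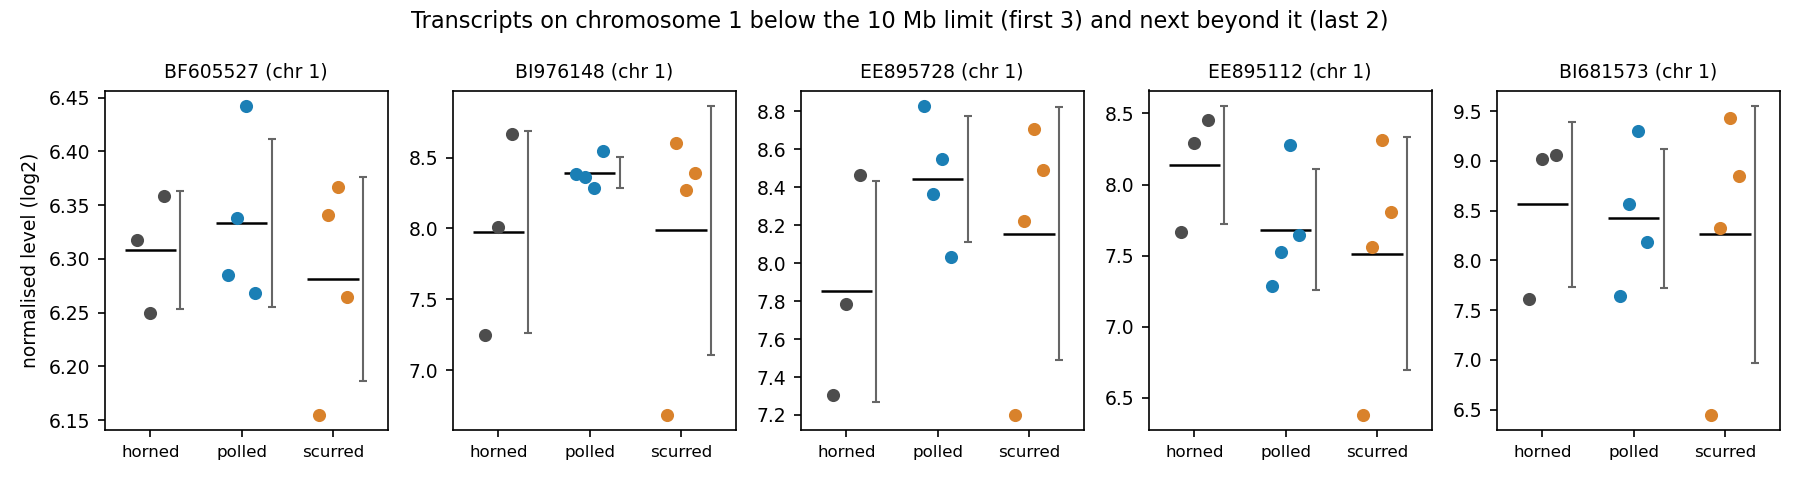
Normalised log2 level in each of the 11 animals for the 3 transcripts below 10 Mb on chromosome 1 and the next 2 beyond it, by horn type (points, 1 per animal; black line, mean; grey bar, 1 SD on each side). Each panel has its own scale that does not start at 0; BF605527 lies at background, and scurred animal 1 is the lowest point of all 5 panels.

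The coding genes known to lie by the polled locus were taken as a list of 28 symbols, of which 21 were tested. Between polled and horned animals 3 were higher at an unadjusted p under 0.05 and 2 lower, beside 4.78% and 4.53% of all probes, with a median of 0.076 against 0.012 for all probes. TIAM1, an exchange factor for a small GTPase, stood at 1.28 ± 0.41, SLC5A3, an inositol transporter, at 0.81 ± 0.23, and SOD1, superoxide dismutase, at 0.49 ± 0.18. The interferon receptor chains IFNGR2 and IFNAR1 stood at -0.57 ± 0.23 and -0.41 ± 0.13. In scurred animals 1 of 21 was higher, RCAN1 at 0.72 ± 0.30, and none was lower, beside 1.6% and 2.13% of all probes. No gene of the list passed the adjusted threshold in limma in either comparison.

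By chromosome, the share of tested transcripts at an unadjusted p under 0.05 between polled and horned animals ranged from 0% on chromosome 21 (0 of 27) to 25.9% on chromosome 20 (5 higher and 2 lower of 27), beside 9.31% of all probes. Chromosome 10 had 9 higher and 0 lower of 65, and chromosome 13 had 7 and 0 of 50. Chromosome 1 as a whole had 7 higher and 3 lower of 63 for polled, 3 and 5 for scurred against horned animals. The median difference between polled and horned animals ran from -0.04 on chromosome 7 to 0.26 on chromosome 12. No test between chromosomes was run.

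Of the transcripts with the widest range between animals, 3 followed epidermal and 1 followed gland genes. The 6 with the largest SD of the level, among those detected in all 11 animals, had SDs from 1.36 to 1.93. CB224791 had levels of 10.78, 12.79, 11.31 and 12.65 in polled, 12.44, 12.23, 10.84 and 9.39 in scurred, and 8.65, 9.35 and 8.88 in horned animals. All 8 polled and scurred animals lay above all 3 horned animals, and the polled difference of 2.81 ± 0.88 (limma adjusted p = 0.485) was the highest of all 1261. Its closest genes were GRB7, a signalling adaptor, ELMO3 and GRHL1, a transcription factor of epidermal differentiation (r = 0.977, 0.973 and 0.965).

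CB537631 was at 10.40, 11.77, 9.63 and 10.46 in polled, 12.79, 11.55, 9.04 and 8.09 in scurred, and 8.39, 8.63 and 7.94 in horned animals. CB426702 was at 9.14, 10.28, 7.74 and 8.51, at 10.81, 10.03, 7.71 and 7.28, and at 7.19, 7.28 and 7.39 in the same order. Both were high in scurred animals 1 and 2 and low in scurred animals 3 and 4. Their r with the mean level of 10 epidermal genes (keratins, loricrin and desmosomal proteins among them) was 0.974 and 0.954 (0.935 and 0.943 with melanocyte genes). That epidermal level was 14.71, 13.89, 10.10 and 9.79 in scurred, 11.01 to 13.33 in polled and 9.71 to 10.75 in horned animals. The part of epidermal content in these levels was not tested.

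BF041253 ranged from 8.58 to 14.14, with 9.15, 14.14, 12.32 and 12.56 in polled, 9.87, 13.34, 9.07 and 9.93 in scurred, and 8.58, 10.60 and 9.48 in horned animals. Its closest genes were FAR2, which makes fatty alcohols in sebaceous glands (r = 0.986), PDZK1 and MBOAT2 (r = 0.982 and 0.981), and its r with the gland genes was 0.880. CB431095 was at 12.77, 12.49, 13.21 and 13.54 in polled animals and spread from 8.44 to 12.92 in scurred and 8.84 to 11.73 in horned animals. AV612245 was highest in scurred animal 4 at 11.90, against 6.61 to 9.59 in the other 10, and its closest gene was NDNF (r = 0.958), a secreted factor, followed by BMP4, a bone morphogenetic ligand (r = 0.918). Without scurred animal 4 its SD fell to 1.01. Over all 1042 transcripts detected in all animals, 36 (3.45%) had r over 0.8 with the gland genes, against 3.05% of 10549 named genes, and 12 (1.15%) with the epidermal genes, against 2.24%.

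Transcripts that lie close together on the chromosome had like patterns when written in the same orientation. There were 110 pairs that overlap or lie within 10000 bases, and both transcripts were tested in 80. The median r of their levels over 11 animals was 0.637, against 0.107 for 29690 farther pairs of tested transcripts on 1 chromosome. The share of pairs with r over 0.8 was 36.2% (29 of 80) against 2.99%. In 71 pairs of the same orientation the median was 0.676, and in 9 pairs of other orientation it was 0.052. The latter included both probes of the contig NW_928513 on chromosome 12, placed on the same interval (r = 0.62). The overlapping pairs (8 tested) had a median of 0.614 and the 72 others 0.643. All pairs share the same 11 animals, and the median stayed between 0.593 and 0.673 whichever animal was left out. Without scurred animal 1, 15 pairs had r over 0.8.

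The pairs with the closest patterns lie on 4 chromosomes. BG690916 and BM286287, which overlap on chromosome 19, had r = 0.966. BG690916 was at 7.77, 6.95, 7.53 and 7.64 in polled, 7.68, 7.93, 8.39 and 8.63 in scurred, and 7.70, 7.64 and 7.79 in horned animals. BM286287 was at 11.11, 9.79, 10.50 and 10.76, at 10.80, 11.12, 11.75 and 11.91, and at 10.59, 10.71 and 10.55 in the same order. Both were highest in scurred animals 3 and 4 and lowest in polled animal 2, and the scurred difference from horned animals was 0.45 ± 0.25 and 0.88 ± 0.38.

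EE890311 and EE907497 on chromosome 13, 7152 bases apart, had r = 0.955, with polled differences from horned animals of 0.28 ± 0.23 and 0.26 ± 0.41. CB170658 and CB419998 on chromosome 10, 4958 bases apart, had r = 0.948, and BI849974 and CB432920 on chromosome 14, 647 bases apart, had r = 0.945. At the other end, EE912650 and BI976792 on chromosome 24 (9593 bases apart) had r = -0.575, and BE685468 and BF776650 on chromosome 1 had r = -0.461, both pairs of the same orientation. CB457542 and BI976726 on chromosome 14 (r = -0.318) and BE808461 and CB438825 on chromosome 15 (r = -0.281) are of other orientation.

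**Figure D5:**
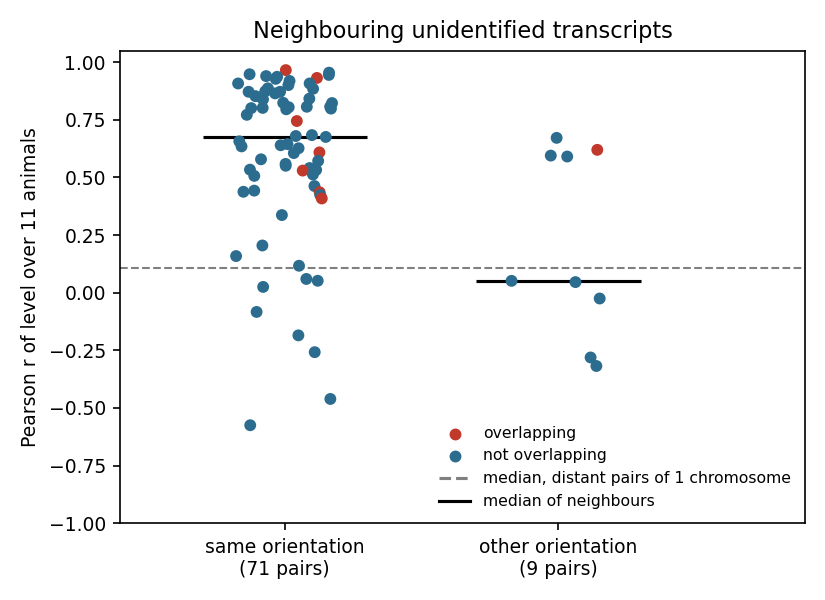
Pearson r of the log2 level over 11 animals for 80 pairs of neighbouring unidentified transcripts (points; overlapping pairs in red), by whether both are written in the same orientation (black line, median). The median of the 71 same-orientation pairs, 0.676, lies above the dashed line of the distant pairs at 0.107, and that of the 9 others at 0.052 does not.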

How the data were processed

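Per the submitters' processing notes, the authors read the scans with Agilent Feature Extraction 9.5.1. The deposited files hold intensity values and background per spot and colour, other columns with yes or no flags (well above background, saturated, uneven), and the authors' log10 ratio of red over green. The deposited series table holds 20 columns of ratios, 14 with the slope of the scanner ratios and 6 with the opposite sign (column medians -0.019 to 0.00971), and was not used for results.

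Intensities were corrected with normexp (offset 50) and normalised by loess within arrays in limma 3.58.1 (R 4.3.3). Rejected spots were left out and the 2 spots of a probe averaged. The arrays of each of chips 1 to 4 gave each polled and scurred animal 1 log2 difference from the horned animal of its chip, with a dye term. Limma fitted the chip as a block, horn type and sex over 11 animals (5 residual degrees of freedom). Chips 2 and 4, which share a horned animal, were 1 block. On chips 1 and 3 the polled animal was the only female. Sex and the polled type are therefore told apart only through chips 2 and 4. Benjamini-Hochberg adjustment was over 15709 probes detected in at least 3 animals. Chip 5 was fitted alone (15290 probes). The chip number pairs animals because they share arrays. Levels are log2 values per channel after Aquantile, the red and green means averaged. They describe animals, and were not compared between probes. The precision is limited by the number of animals.

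Named transcripts were those below 10 Mb on chromosome 1, 6 per horn-type comparison and 4 for the site by lowest p with 1 sign throughout, 6 by SD and 8 neighbouring pairs. Members and lists were chosen with earlier results of these data known. Scripts were tested on simulated data. Alternatives covered background, normalisation, filters, sex, block and left-out animals. One stretch of a chromosome is not reported here. The genome build of the positions and the meaning of their written order are not given in the sources used here.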

Additional observations from a re-analysis of the deposited data

Results flagged for a closer look

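Among 54 groups of 4 animals, taken over 27 tested named transcripts, 3 had 1 animal apart from the other 3 by Dixon's test, and chance gives about 5%. BI682285 stood at -0.56 in scurred animal 4 relative to the horned animal of its chip, against 0.169 to 0.297 in the other scurred animals. These values are before adjustment for sex. Scurred animal 4, a male, was the only scurred animal that differed in sex from the horned animal of its chip. BE752842 stood at -1.58 in scurred animal 1, against -0.71 to -0.699. AW327184 stood at 0.383 in polled animal 3, against 0.328 to 0.333, a small gap within a narrow group.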

How the results depend on the processing

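No transcript passed the adjusted threshold in limma for any horn-type comparison under any left-out animal or chip. The counts at an unadjusted p under 0.05 ranged from 29 to 194 for polled against horned, 29 to 98 for scurred against horned and 14 to 150 for scurred against polled animals. Polled against horned gave 37 without polled animal 2, and scurred against polled gave 138 without scurred animal 1 and 16 without chip 2. The median differences ranged from 0.0252 to 0.0956, -0.0330 to 0.0446 and -0.0983 to -0.0172, and from 0.0143 to 0.0709 for the horn site. Without the chip as a replicate block, which removes the pairing of animals on shared arrays, the counts were 92, 39 and 36, and BI976148 stood at 0.0385 between scurred and horned animals. That difference of BI976148 was also above 0 without chip 1 (0.0103), chip 3 (0.0917), horned animal 3 (0.183) or scurred animal 1 (0.210), and its polled difference was below 0 without horned animal 2 (-0.154) or polled animal 1 (-0.0311). Over the other left-out animals these stayed on their side, down to -0.413 for scurred animals (without horned animal 2) and at 0.531 for polled animals without polled animal 3. With median centring the horn-site median was -0.0692, and with every probe fitted 110 transcripts were at an unadjusted p under 0.05 there. With 1 spot enough for detection, 127 transcripts were undetected. The cause was not tested for these. Of the neighbouring pairs, whose alternatives were chosen after seeing the data, those of other orientation had medians of -0.126 to 0.234 over left-out animals.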
